A study of Homo sapiens with 4 samples.

Results

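The comparison described here sets 1 array of LNCaP cells given 1 nM R1881 against 1 array of untreated LNCaP cells. Its members are the 455 probes whose names assign them to a human miRNA and that carry no mismatch tag, out of 1406 probes on each array. LNCaP is an established human prostate adenocarcinoma line, and R1881 is a synthetic androgen that binds the androgen receptor. Before they received 0 or 1 nM of the compound, both groups spent 24 hours without androgen, in medium whose serum had been stripped with charcoal, so the untreated cells are androgen-deprived cells and not cells in full serum. The other arrays of the series, at 0.1 and 10 nM, are used for side-by-side values. Each dose has 1 array and the labels name no replicate culture, so no difference between the arrays has an error or a p-value, and counts past a fold are descriptions of these arrays. Per the protocols 10 µg of total RNA was hybridised, so the signals give no amount of miRNA per cell.

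MiRNAs are short RNAs cut from hairpin precursors by Drosha and Dicer and loaded into Argonaute proteins. Bases 2 to 8 of the mature strand, the seed, select the mRNAs that are repressed, so miRNAs with a common seed share many targets. The androgen receptor is a transcription factor that acts on the host transcripts of miRNAs as on other genes. Prostate epithelium is known for its miR-200 family, which holds the epithelial state, and androgen-responsive miRNAs such as miR-21 and miR-141 have been described in prostate cancer cells.

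Mature sequences from RefSeq (GRCh38.p14) are given for the miRNAs with ratios far from 0 and for relatives that share a seed with them. Capitals mark the seed, and the sequences are written 5′ to 3′. The array's older names were matched to 63 of the 66 miRNAs measured here, and miR-30b, miR-425-5p and miR-594 were not among these. The sequences of the probes themselves were not used here.
miR-494: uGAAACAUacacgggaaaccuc
miR-601: uGGUCUAGgauuguuggaggag
miR-16: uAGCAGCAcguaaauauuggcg
miR-15a: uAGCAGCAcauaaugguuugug
miR-15b: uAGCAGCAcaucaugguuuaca
miR-106a: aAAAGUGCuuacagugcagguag
miR-106b: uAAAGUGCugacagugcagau
miR-29a: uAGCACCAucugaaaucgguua
miR-29b: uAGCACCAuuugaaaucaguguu
miR-221: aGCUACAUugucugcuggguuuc
miR-222: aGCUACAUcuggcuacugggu
miR-663: aGGCGGGGcgccgcgggaccgc
miR-638: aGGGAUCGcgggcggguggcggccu
In that build the mature miR-494 lies at chr14:101029681-101029702 on the plus strand, in the imprinted miRNA cluster of that chromosome. MiR-601 lies at chr9:123402567-123402588 on the minus strand, within the span of DENND1A, and miR-638 at chr19:10718419-10718443 on the plus strand, within that of DNM2. MiR-663 lies at chr20:26208243-26208264 on the minus strand, within its host transcript MIR663AHG. MiR-16 comes from 2 genes, MIR16-1 within DLEU2 on chromosome 13 and MIR16-2 within SMC4 on chromosome 3.

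Values are given as net signals, in the arbitrary units of the scanner. A net signal is a probe's mean signal minus the median signal of the array's mismatch probes, which was 371.5 on the untreated array and 295.75 at 1 nM. A miRNA was called detected when its signal passed the mismatch median by more than 3 scaled median absolute deviations, a net signal of 147 on the untreated array and 139 at 1 nM. Of the 455 miRNAs, 62 were detected in untreated cells and 61 at 1 nM, 57 of them on both arrays, 5 only in untreated cells and 4 only at 1 nM. The remaining 389 were not detected on either array. Among these, miR-342 came closest to the threshold, at net signals of 110 and 136.25 untreated and at 1 nM, and was chosen for that after its values were seen. The label of the cells was checked against marker miRNAs: 4 of 6 epithelial markers were detected on both arrays, and the net signals of all 6 summed to 3187.5 untreated and 3182.25 at 1 nM. None of the 7 blood, 5 muscle, 6 stromal and endothelial, 6 neuronal and 1 liver markers was detected on either array, and their summed net signals ran from -246.75 to 58.25 untreated and from -93.75 to 79 at 1 nM. The control probes Bio B and Bio C had net signals of 1276 and 1563.25 untreated, and of 1214.75 and 1235.5 at 1 nM. On the arrays at 0.1 and 10 nM Bio B read 617 and 2550.5, so net signals of these arrays are not on 1 scale with the others.

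After normalisation, the miRNA signals of the array at 1 nM R1881 were close to those of the untreated array. The normalisation gives both arrays the same distribution, which by itself holds the centre of the ratios near 0. Over the 66 miRNAs detected on at least 1 array, the normalised log2 ratio of 1 nM to untreated had a median of -0.04, quartiles of -0.20 and 0.15, and an SD of 0.34 between miRNAs. Of these miRNAs, 44 lay within 0.25 of 0 on the log2 scale. At 1.5-fold or more, 3 were higher, miR-494, miR-601 and miR-16 (4.55%), and 3 were lower, miR-638, miR-663 and miR-30b (4.55%). These 6 of 66 make 9.09%. On net signals with no other step, the 66 had a median of -0.02 and an SD of 0.53. By that measure 7 were higher and 5 lower at 1.5-fold or more, and the share of mismatch probes was not computed that way. Among 448 mismatch probes of human miRNAs, each of which differs from its match probe by mismatched bases, 5.13% were higher and 5.8% lower, or 10.9% in all. Among the 389 miRNAs that were not detected, 1.03% were higher and 3.34% lower, or 4.37% in all, and among 23 detected mouse and rat probes 4.35% were higher and 4.35% lower, or 8.7% in all. By normalised ratios, the share of measured miRNAs past 1.5-fold was thus near that of the mismatch probes, so the count by itself is not a result about the miRNAs.

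**Figure D1:**
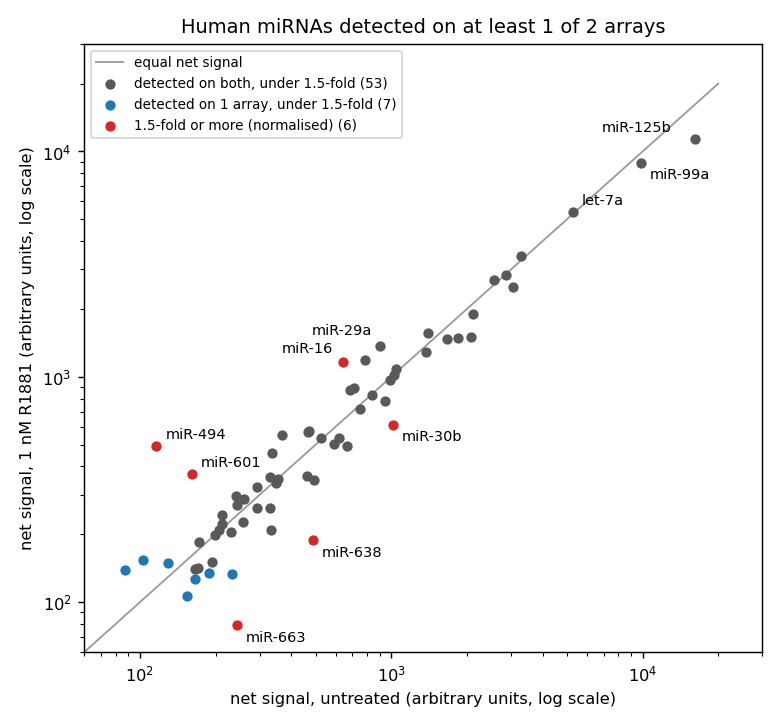
Net signal of 66 human miRNAs in untreated cells (horizontal axis) and at 1 nM R1881 (vertical axis), both in arbitrary units on log scales, 1 array each. Points are miRNAs, the line marks equal net signal, and red points are the 6 whose normalised ratio was at 1.5-fold or more; most others follow the line, with miR-125b below it at the bright end.

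Most of the brightest probes lay near the line in the plot of net signals, and some lay below it. MiR-125b, which targets p53 among other mRNAs, gave net signals of 16216.25 untreated and 11358.5 at 1 nM, a ratio of 0.700. It was the brightest miRNA on both arrays, and quantile normalisation, which sets equal ranks equal, therefore gave a log2 ratio of 0.00, where median centring gave -0.51. MiR-99a, of a family known to lower mTOR, stood at 9827.75 and 8887.5, and let-7a, of the let-7 family that restrains RAS and MYC, at 5288 and 5384.5. The 3 brightest miRNAs carried 41.2% of the summed net signal of the 66 untreated and 36.8% at 1 nM, and the sum fell from 76001.25 to 69678.5, to 91.7%. The net signal of miR-125b alone fell by 4857.75. Ratios of net signals below 1 were also seen among other bright miRNAs, 0.720 for miR-200a, 0.804 for miR-103 and 0.820 for miR-100.

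The spread of the normalised ratios differed with brightness. The SD of log2 ratios was 0.19 for the 16 miRNAs with a mean net signal over 1000, and none of these reached 1.5-fold. Among them miR-125b, miR-99a, let-7a and miR-191 kept their ranks and were set to 0.00 by quantile normalisation. On net signals with no other step miR-125b was at -0.51, and miR-29a, at 0.60, was past 1.5-fold. The SD was 0.37 for the 15 between 500 and 1000, of which miR-16 and miR-30b reached 1.5-fold, and 0.49 for the 17 between 250 and 500, of which 3 did. It was 0.26 for the 18 below 250, of which 1 did. The part of the normalisation and of the offset of 50 in these SDs was not tested.

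MiR-494, from the imprinted cluster of chromosome 14, was the miRNA with the highest ratio. Its net signal was 116.25 untreated, below detection, and 493.75 at 1 nM, so that it was at least 2.07-fold higher at 1 nM. Its mismatch probe stood at -37 and -69.25, so the mismatch probe did not rise with it. Some probes outside the comparison, named after their values were seen, also rose from untreated to 1 nM. Among these were the mismatch probe of miR-568, from 15 to 319.75, and the mouse probe of miR-709, from 142 to 385. Of 448 mismatch probes of human miRNAs, 23 were 1.5-fold or more higher and 26 lower. Whether such signal has a part in the ratio of miR-494 was not tested. On the other arrays the net signals of miR-494 were 71.5 at 0.1 nM, below detection, and 798.75 at 10 nM. The mouse probe of the same name, not detected on either of the 2 arrays, gave net signals of 7.75 and 127. Of 30 miRNAs of the same cluster on the array, miR-494 was the only one detected untreated or at 1 nM.

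MiR-601, whose function is little known, gave net signals of 161.25 untreated and 370.75 at 1 nM, a normalised ratio of 1.72-fold. Its mismatch probe moved in the same direction, from -13 to 77.75, neither of them detected, so the match probe gained 209.5 and the mismatch probe 90.75. At 0.1 nM and 10 nM the match probe stood at 113.5 and 526, and the mismatch probe at 0 and 122.75.

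MiR-16, which represses cyclins and BCL2, gave net signals of 645 untreated and 1162.5 at 1 nM, a normalised ratio of 1.62-fold. Its mismatch probe stood at -9 and 16.25, a shift of 25.25 beside a gain of 517.5 in the match probe. The array at 10 nM gave 1182.25, which after normalisation was a log2 ratio of -0.13 to 1 nM. The array at 0.1 nM gave 442.5, which after normalisation was a log2 ratio of 0.28 to untreated cells. The miRNAs that share its seed behaved differently: miR-15a went from 329 to 261, at a log2 ratio of -0.27, and miR-15b from 205.75 to 208.25, at 0.04 by quantile normalisation and -0.03 by median centring. MiR-15a and miR-15b are transcribed beside the 2 miR-16 genes, within 10000 bases, and the log2 ratios of these neighbours lay 0.96 and 0.65 from that of miR-16. MiR-195 and miR-497, the other pair with that seed, stood at net signals of 212.5 and 165 untreated, and of 222.5 and 127.25 at 1 nM, the last below detection.

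MiR-638 had the lowest ratio, at net signals of 489 untreated and 188 at 1 nM, or 1.90-fold lower after normalisation. Its mismatch probe was detected on both arrays, at 170 and 201.25, so at 1 nM the match probe was no brighter than its mismatch. MiR-663 fell from 243.5 to 78.75, below detection, and was at least 1.32-fold lower, with its mismatch probe at 138.5 and 124.25. These 2 miRNAs have the highest GC content of the 63 with a sequence, at 80.0% and 90.9%, against a median of 45.5%. The part of GC content and of the mismatch signal in these ratios was not tested.

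MiR-30b, of a family that holds back mesenchymal genes, gave net signals of 1015.75 untreated and 611.75 at 1 nM, 1.59-fold lower. Its mismatch probe stood at 0.5 and -36.75, far below the match probe on both arrays. It was also lower on the other treated arrays, at 130.75 at 0.1 nM, below detection, and 528.25 at 10 nM. Its relative miR-30c stood at 293.5 and 324.75, and the other 3 guide strands of the family on the array were not detected untreated or at 1 nM.

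Set against their own mismatch probes, most miRNAs were far brighter than the mismatch. The median net signal of the 66 match probes was 464.75 untreated and 474.5 at 1 nM, and that of their mismatch probes 2 and 10.75. In 10 of the 66 the mismatch net signal at 1 nM was 25% or more of the match net signal, in 6 it was 50% or more, and in 3, miR-638, miR-663 and miR-608, it was at or above it. MiR-608, detected at 1 nM only, gave net signals of 129.75 and 148.5, with its mismatch probe listed at 0 untreated and at a net signal of 159.75 at 1 nM. Mismatch probes of 3 of the 66 were detected at 1 nM, those of miR-638, miR-608 and miR-594, the last named after its values were seen, and 1, that of miR-638, in untreated cells.

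Over 65 pairs with a mismatch signal on both arrays, the log2 ratios of the mismatch probes had a median of 0.10 and an SD of 0.36, beside an SD of 0.34 for the match probes of the 66. Mismatch probes past 1.5-fold numbered 7, or 10.8%, of which 4 were higher (6.15%) and 3 lower (4.62%). Higher were those of miR-574, miR-601, let-7f and miR-148a, and lower those of miR-23a, miR-30c and miR-222. The change in net signal, without regard to sign, was larger for the match probe in 52 of the 65. The 2 ratios went in the same direction in 37 of the 65, with Pearson's r = 0.27 and Spearman's rho = 0.31 across pairs, which share the arrays and the local sequence and are not independent replicates. Of the 6 miRNAs past 1.5-fold, only miR-601 had a mismatch probe past 1.5-fold in the same direction, at a log2 ratio of 0.95 beside 0.78.

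**Figure D2:**
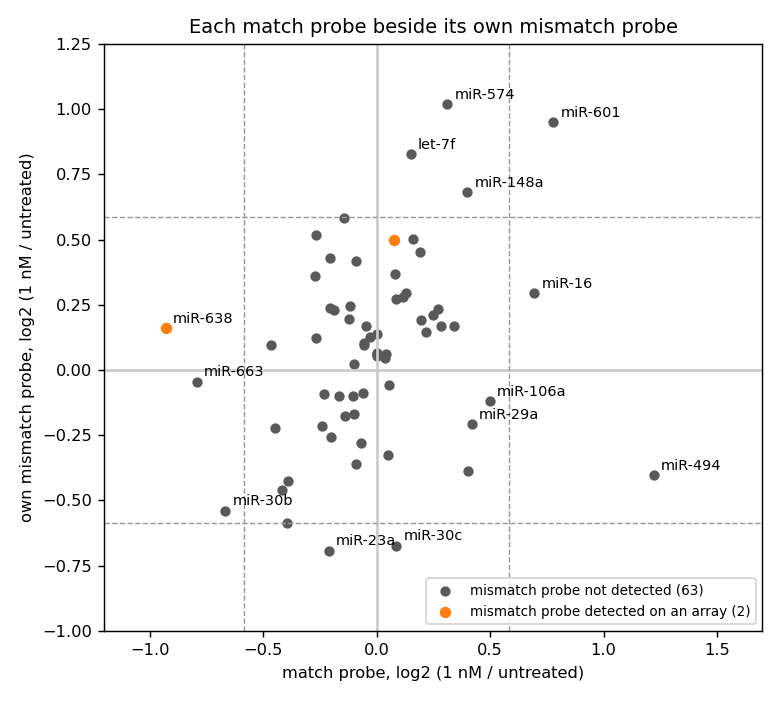
Log2 ratio of 1 nM to untreated for the match probe (horizontal axis) and its own mismatch probe (vertical axis) of 65 human miRNAs, with dashed lines at 1.5-fold. Points are probe pairs, orange where the mismatch probe was detected on either array; the match probes of miR-494 and miR-16 lie far right while their mismatch probes stay within 1.5-fold, and miR-601 is high on both axes.

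Below the 1.5-fold mark, miR-106a, miR-29a and miR-148a had the highest ratios of those detected on each array. MiR-106a, of the miR-17 seed family that promotes proliferation, gave net signals of 784 untreated and 1182.25 at 1 nM and a log2 ratio of 0.50, with its mismatch probe at 2 and -5.25. MiR-29a, which represses collagens and DNA methyltransferases, had 905.75 and 1372.5 and a log2 ratio of 0.42, with its mismatch probe at -50.5 and -57.75. MiR-148a, which targets DNMT1, had 366.5 and 550.25 and 0.40. The gains in net signal were 398.25, 466.75 and 183.75, and the mismatch probe of miR-148a gained 62.75. On net signals with no other step, each of the 3 was past 1.5-fold, at ratios of 1.51 for miR-106a and 1.52 for miR-29a, with miR-148a just past the mark. The others in order were miR-574 at 0.31, miR-203 at 0.28, miR-20b at 0.27, let-7e at 0.25 and miR-17-5p at 0.22. For miR-574 the mismatch probe went from 1.5 to 111.25 beside 1406 and 1569.75 for the match probe.

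At the lower end, below the mark, were miR-425-5p, miR-221 and miR-23b. MiR-425-5p gave net signals of 493 and 348, and a log2 ratio of -0.47. MiR-221, which represses the cell cycle inhibitor p27, had 333 and 209, and -0.45, and its cluster partner miR-222, with the same seed, 231.75 and 133, the latter below detection, or at least 1.27-fold lower. The mismatch probe of miR-221 fell too, from 90 to 52.75, and that of miR-222 from 141 to 48.25, so that with its own mismatch signal subtracted miR-222 had a log2 ratio of 0.05. MiR-23b, known to restrain glutaminase, had 667.75 and 492.25, and -0.42, with its relative miR-23a at 589.75 and 502.25, and -0.21. MiR-29b stood at 946.25 and 781.25, and -0.39, opposite to miR-29a, next to which 1 of its genes lies. MiR-200b, miR-15a, miR-100 and miR-106b followed at -0.27, -0.27, -0.27 and -0.24.

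Of the miRNAs detected on 1 array only, miR-494, miR-22, miR-101 and miR-608 were detected at 1 nM. MiR-22 went from 102.75 to 153.25, at least 1.04-fold higher, and miR-101, which targets EZH2, from 87.25 to 139.25, a net signal that just reached the threshold and allows no bound. MiR-663, miR-222, miR-92, miR-422b and miR-497 were detected only in untreated cells. MiR-92 went from 153.5 to 106 and miR-422b from 188.25 to 134.75. MiR-92, miR-422b, miR-497, miR-22 and miR-608 lay close to the detection threshold on both arrays, where a small difference in signal decides detection.

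**Figure D3:**
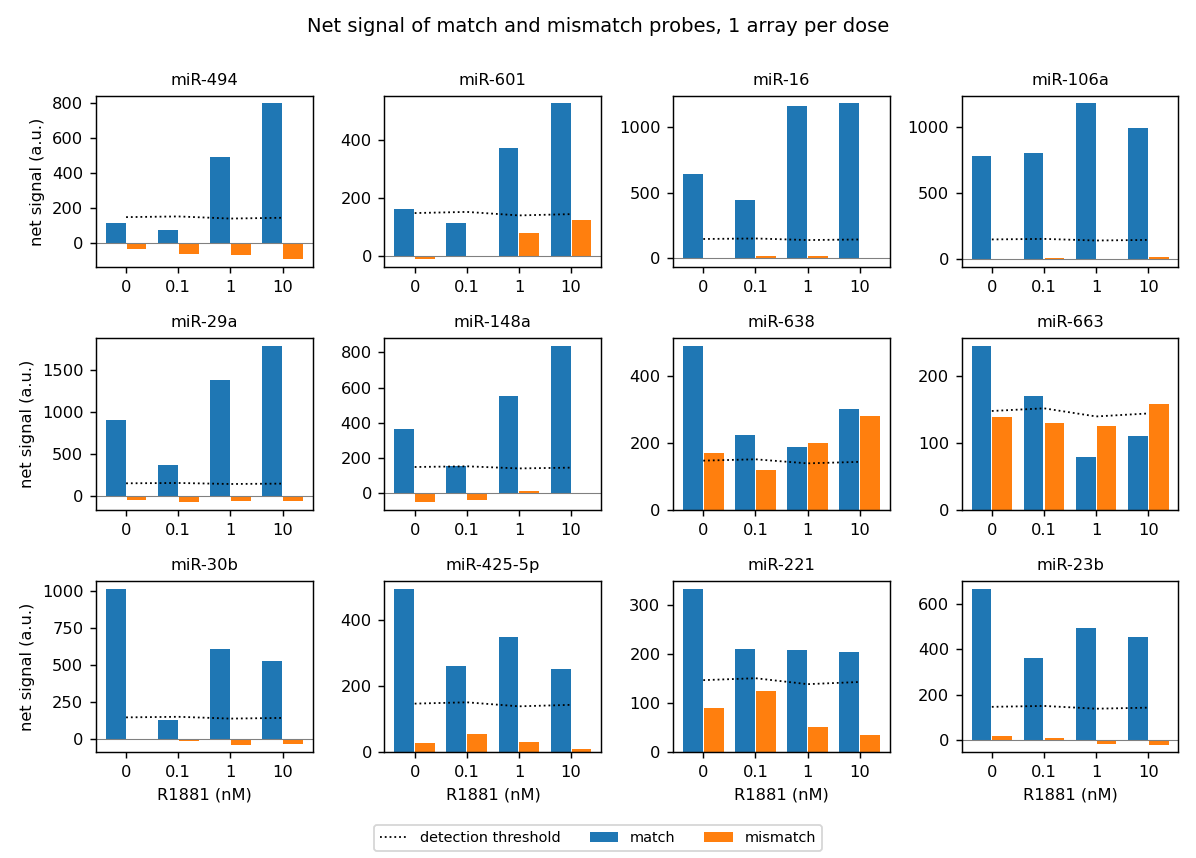
Net signal in arbitrary units (vertical axes, a scale for each panel) of 12 miRNAs at 0, 0.1, 1 and 10 nM R1881 (horizontal axes), with 1 array per dose; blue bars are match probes, orange bars their mismatch probes and the dotted line the detection threshold. The panels from miR-494 to miR-148a have high ratios at 1 nM and those from miR-638 to miR-23b low ones; at 1 nM the mismatch bars of miR-638 and miR-663 are taller than their match bars. Net signals at 0.1 and 10 nM are not on 1 scale with the others.

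On the array at 10 nM, which shares the untreated array with the present comparison, the 6 miRNAs past 1.5-fold stood on the same side of the untreated level, which these comparisons have in common. At 0.1 nM this was not seen for each of them. MiR-494 was below detection both there and untreated, so its signals on these arrays carry no order. MiR-601, detected untreated, was below detection at 0.1 nM, and miR-663 had a log2 ratio of 0.02. The log2 ratios at 10 nM were 0.96 for miR-601 and 0.56 for miR-16, and they were -0.70 for miR-638 and -1.09 for miR-30b. Set directly against the array at 1 nM, that at 10 nM gave log2 ratios of 0.37 for miR-494, 0.19 for miR-601, -0.13 for miR-16, 0.23 for miR-638 and -0.42 for miR-30b, each under 1.5-fold. MiR-29a and miR-148a were both at 0.36 in that direct comparison, at net signals of 1781.5 and 836.5 at 10 nM, and miR-425-5p and miR-221 at -0.46 and -0.30. At 0.1 nM miR-29a and miR-148a had normalised log2 ratios to untreated of -0.41 and -0.58. Their net signals there were 367.5 and 150.5, the latter below detection. Of all miRNAs detected on at least 1 of the arrays compared, 26.2% of 65 were past 1.5-fold at 0.1 nM, 10.8% higher and 15.4% lower, and 21.5% of 79 at 10 nM, 12.7% higher and 8.86% lower, beside 9.09% at 1 nM.

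Families of miRNAs moved little as groups, and none of the 16 lists with 2 or more measured members had a median past 1.5-fold. Of all 66 miRNAs, 28 had a log2 ratio above 0 and 34 below. Of the 8 measured let-7 members, which share the seed GAGGUAG, 5 were above 0 and 2 below, with a median of 0.12 and a range from -0.21 to 0.25. Their summed net signal was 16089.75 untreated and 16597.25 at 1 nM. In the miR-17-92 group and its paralogues 5 of 9 were above 0 and 4 below, with a median of 0.19. The 6 of them that share the seed AAAGUGC had a median of 0.21, with 5 above 0, and miR-106b the exception at -0.24. MiR-92, with another seed, went the other way as given above. The mature strands of miR-106a and miR-17-5p differ only in the base at the 5′ end. Whether the probes of such close relatives read one another was not tested, so family members may not be separate readings. With median centring the let-7 median was 0.04 and that of the miR-17-92 group 0.18, and the authors' deposited table gave 0.05 and 0.30.

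In the miR-200 family, whose members hold back ZEB1 and ZEB2, 1 of 4 was above 0 and 3 below, at a median of -0.12. MiR-200a stood at 2075.5 untreated and 1494.5 at 1 nM, miR-200b at 992.5 and 964.25, miR-200c at 1374.5 and 1294.75, and miR-141 at 243.5 and 269. The miR-99/100 family, whose genes lie beside let-7 and miR-125 genes, had a median of -0.07, with miR-100 at 3038.25 and 2491. MiR-103 and miR-107, which sit in introns of pantothenate kinase genes, were at 1848.5 and 1659.25 untreated, and at 1486.5 and 1478.5 at 1 nM. MiR-26a and miR-26b, within genes of CTD phosphatases, were at 841.5 and 750.25 untreated and at 826.5 and 716 at 1 nM. The family of miR-29 had 2 of 3 above 0 with a median of 0.09, and the 2 members of the list of miR-221 and its partner a median of -0.42, the lowest of any list, with 0 of 2 past 1.5-fold. That median depended on the processing: on net signals with no other step it was -0.74, with both members past 1.5-fold, and with the mismatch signal subtracted it was -0.20.

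**Figure D4:**
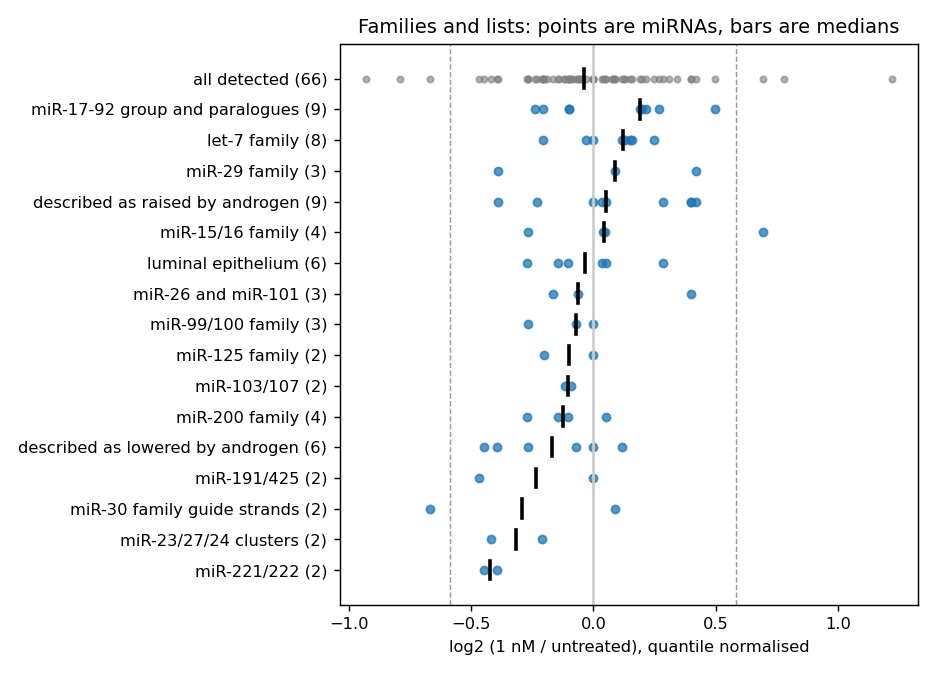
Log2 ratio of 1 nM to untreated (horizontal axis, quantile normalised) for the members of 16 lists with at least 2 measured miRNAs and for all 66 (rows, with the number measured). Points are miRNAs, black bars are medians and dashed lines mark 1.5-fold; all medians lie between -0.42 and 0.19.

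A list of 12 that other work reported as induced by androgen had 9 measured members. Of these 6 had a log2 ratio above 0, 2 below and 0 reached 1.5-fold, and the median was 0.05. The remaining member, miR-125b, was at 0.00 as the brightest miRNA on both arrays, but at -0.51 by median centring. The summed net signal of the list, to which miR-125b gave the most, was 20471 untreated and 16318.5 at 1 nM. The list holds miRNAs described in androgen-treated prostate cells, miR-21 among them, and is not independent evidence of its direction. MiR-21, which represses PDCD4, gave net signals of 1040 untreated and 1078 at 1 nM, and its log2 ratio was -0.23 by quantile normalisation and 0.05 on the net signals, so its direction was not settled. MiR-141 stood at 0.05, miR-29a at 0.42 and miR-203 at 0.28. Of 6 reported as reduced by androgen, 1 was above 0, 4 below and 0 reached 1.5-fold, with a median of -0.17, and miR-221, miR-222 and miR-100 were the lowest. Their ratios depended on the processing. Let-7c was at 0.12 by quantile normalisation and -0.03 by median centring, and miR-99a at 0.00 and -0.15. On net signals with no other step miR-221 and miR-222 were past 1.5-fold, at -0.67 and -0.80. This list too is not independent evidence of its direction. Of 11 epithelial miRNAs on the array, listed under luminal epithelium, 6 were measured. MiR-375, miR-205, miR-183, miR-96 and miR-429 were not detected. Whether each of the 11 is particular to luminal cells was not tested. Of the 6, 3 were above 0 and 3 below, with a median of -0.03.

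Mouse and rat probes of the same miRNA name gave a second reading of some members on the same arrays. There were 13 such probes, of which 11 were detected on at least 1 of the 2 arrays, and their log2 ratios differed from those of the human probes by a median of 0.15 and at most 0.33. That largest difference was in miR-99a, where the mouse probe gave net signals of 4625.5 and 3386.25 and a log2 ratio of -0.33 beside 0.00 for the human probe. For miR-106a the mouse probe had 512.25 and 594, and a log2 ratio of 0.21 beside 0.50. For miR-221 it had 309 and 262, and -0.14 beside -0.45. For miR-20b the mouse and rat probes gave 0.39 and 0.14 beside 0.27. In miR-106a and miR-221 the rodent probe thus lay on the same side of 0 but nearer to it. Of the 11, 6 had the sign of the human probe. For let-7a and miR-99a the human ratio was 0.00, and for let-7f and miR-324-5p the mouse ratio, so their signs could not be compared. Only in miR-93 were the signs opposite, at -0.06 for mouse and 0.20 for human. MiR-324-5p and miR-93 were named after their values were seen. The differences between probes of 1 name were as large as many of the ratios described above, and the probe sequences that set them were not used here.

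Among miRNAs whose genes lie within 10000 bases of each other, the 32 pairs of members differed by a median of 0.28 on the log2 scale, beside 0.27 for all 1953 pairs of the 63 miRNAs. Close pairs included miR-221 with miR-222, 0.05 apart, and miR-20a with miR-17-5p, 0.03 apart. Apart lay miR-15a from miR-16, and miR-29b from miR-29a, by 0.81. Pairs share genes, so they are not independent. The GC content of the mature sequence and the log2 ratio had a Spearman's rho of -0.21 and a Pearson's r of -0.36 across 63 miRNAs. With ratios of net signals rho was -0.37, and with normalised ratios it was -0.16 without the 5 of highest GC content, miR-663 and miR-638 among them.

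**Figure D5:**
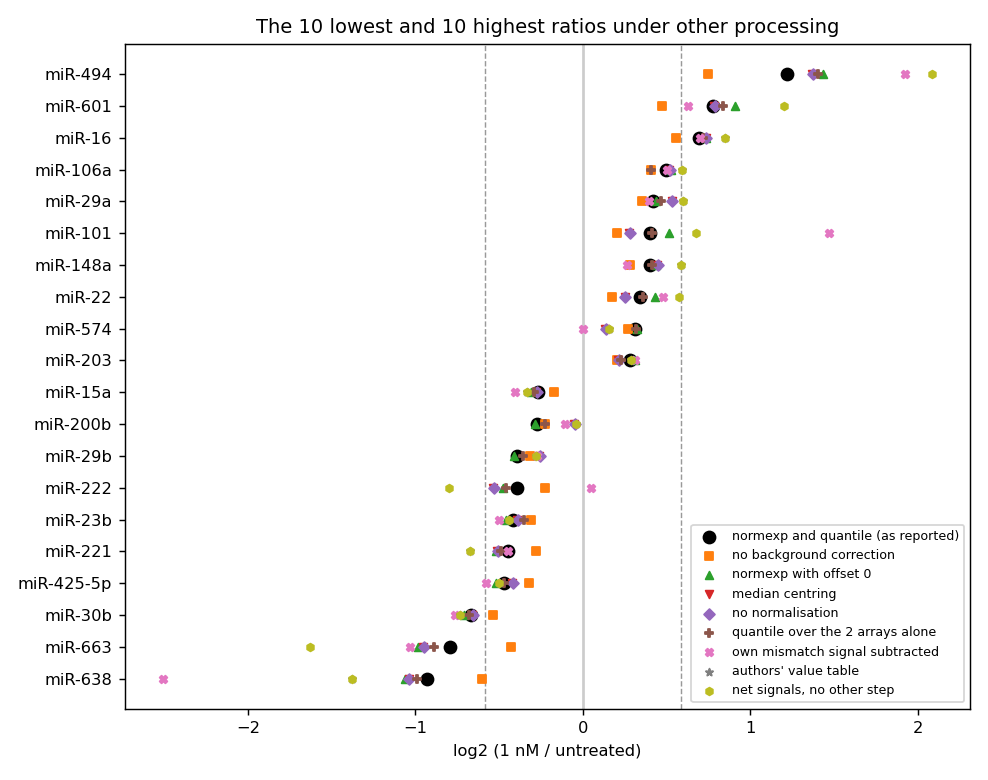
Log2 ratio of 1 nM to untreated (horizontal axis) for the 10 lowest and 10 highest miRNAs (rows) under the reported processing (black) and 8 alternatives (coloured markers), with dashed lines at 1.5-fold. MiR-16 and miR-30b spread least of the 6 past 1.5-fold, and miR-638, miR-663 and miR-494 spread most.

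Across alternatives of background correction and normalisation, the 6 miRNAs past 1.5-fold kept their direction in all 7 or 8 that gave them a value. The authors' table and the net signals gave equal ratios wherever both had a value, so these are not separate readings. The log2 ratio of miR-16 ran from 0.55 to 0.85, that of miR-30b from -0.76 to -0.54 and that of miR-601 from 0.48 to 1.20. Those of miR-494, miR-638 and miR-663, from 0.75 to 2.09, -2.51 to -0.60 and -1.63 to -0.43, had the widest ranges, with their extremes under net signals alone, mismatch subtraction or no background correction. Without background correction, the 6 were reduced to 2, miR-494 and miR-638.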

How the data were processed

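Per the labels' protocols, 10 µg of Cy3-labelled total RNA was hybridised to a custom CombiMatrix array with probes for 474 human miRNAs. The deposited value of each probe is a mean signal, an intensity on a linear scale, per the file headers; the scanner, image software and treatment time are not named in the labels or files. Match signals are multiples of 0.25 and mismatch signals of 0.5. The authors' deposited value table holds the same intensity minus each array's median mismatch signal, with no scaling or log step found; its column medians were 489, 377.75, 493 and 333.25 at 0, 0.1, 1 and 10 nM, and its stated direction relative to untreated cells was not seen.

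Signals were corrected with normexp (limma 3.58.1, R 4.3.3, offset 50), and match probes were quantile normalised over the 4 arrays; mismatch probes were put on that scale by interpolation. Mismatch probes listed at 0 were treated as missing, except in the median that is subtracted for net signals. A miRNA detected on 1 array is given as at least N-fold, against the lowest detected level of the other array or its own level if higher; counts past 1.5-fold use the normalised ratio itself. With 1 array per dose no test was made, and the number of arrays limits the precision. Neighbours and host genes come from RefSeq names. The scripts were tested on simulated data.

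The members, lists and alternatives were chosen with earlier results of these data known. Named miRNAs are all those at 1.5-fold or more, the 10 highest and 10 lowest detected on both arrays, all detected on 1 array, up to 4 brightest of each list, the 10 brightest, miR-21, miR-141, miR-125b, miR-638 and miR-601; others were named after their values were seen. Alternatives covered background correction, normalisation, detection, the fold, mismatch subtraction and the authors' table.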

Additional observations from a re-analysis of the deposited data

Results flagged for a closer look

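Several probes outside the comparison were detected at 1 nM and not in untreated cells. The mismatch probe of miR-568, a miRNA named after its values were seen, rose in net signal from 15 untreated to 319.75 at 1 nM, a log2 ratio of 1.64, and 16.5 and 577.75 at 0.1 and 10 nM. Its match probe, not detected on either array, stood at 11.25 untreated and 37.5 at 1 nM. At 1 nM the mismatch probe was the brighter of the pair, and why was not tested. Others were also named after their values were seen. The mouse probe of miR-709 gave net signals of 142, 87, 385 and 717 at 0, 0.1, 1 and 10 nM. The viral probe of miR-BART12 gave 116.75, 91.75, 160 and 244.5. The mismatch probe of mouse miR-134 gave 78, 56, 168.25 and 222.75. Over all mouse and rat probes, 20 were detected untreated and 21 at 1 nM, and over all mismatch probes 4 and 7.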

How the results depend on the processing

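The main counts at 1 nM were 3 higher and 3 lower of 66. Without background correction they were 1 and 1, and at 2-fold 1 and 0. With all 455 human miRNAs they were 7 and 16, of which 3 and 3 were those counted before. Subtracting from each probe the signal of its own mismatch, with a floor of 50, left 7 lower, of which 3 were those counted before. On net signals with no other step, an alternative chosen after seeing the data, 7 were higher and 5 lower. The other alternatives gave counts within 1.5 times the main ones, but the authors' value table shared 1 of its 4 higher miRNAs with them, and 2 of its 3 lower ones; it has no pair of values for miR-494, miR-601 and miR-663. Leaving out miRNAs with a detected mismatch probe, also chosen after seeing the data, removed miR-638. Of the values of named miRNAs and lists under the alternatives, 633 and 202 moved by less than 0.24 on the log2 scale. That mark is the scaled median absolute deviation over miRNAs detected on both arrays. By more moved 37 and 6, and no value at 1.5-fold changed sign. Alternatives that changed only which miRNAs were counted kept the main ratio. Their values for single miRNAs could not move, so the 633 overstate stability. The authors' table and the net signals gave equal ratios wherever both had a value. The centre of the 66 ratios moved by less than 0.1 in each. No paired analysis was possible because each dose has 1 array, and no array could be left out. Signals below the detection threshold carry no order.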
